A study of Mus musculus with 9 samples.

Results

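Neutrophils that had entered a pancreatic tumor were compared with neutrophils circulating in the blood of tumor-bearing mice. The comparison used 6 of the 9 RNA-sequencing libraries, 3 of Ly6G+ neutrophils from tumors and 3 of Ly6G+ neutrophils from blood. It covered the 7011 of 46517 listed genes whose log2 FPKM was over 0 in at least 3 of these 6 libraries (FPKM is a fragment count scaled to gene length and library size). All mice were C57BL/6 and were studied on day 27 after pancreatic ductal adenocarcinoma cells had been transplanted orthotopically, that is, into the pancreas (OT mice). The blood neutrophils therefore came from mice with a tumor as well, and neither group describes a healthy animal. The transplanted cells were 1 luciferase-expressing line derived from a KPC tumor, a genetic mouse model of pancreatic cancer. Cells were sorted as viable CD45+ Ly6G+ Ly6C+ cells without CD3, B220 or NK1.1, and the cells of several OT mice were pooled for a library, so that it stands for a pool and not for an animal. According to the methods, tumor tissue was digested with collagenase and DNase whereas blood underwent red cell lysis, so that tumor entry and tissue digestion cannot be told apart in these libraries.

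Neutrophils are short-lived phagocytes that leave the bone marrow with preformed granules and find inflamed tissue by chemoattractant receptors such as Cxcr2. After they have left the vessels they can make chemokines and cytokines of their own, which call in further leukocytes. In pancreatic tumors neutrophils are known as an abundant infiltrate that can suppress T cells and remodel matrix.

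Between 4577210 and 6964790 reads were recovered per library, and the genes tested had a median of 214.5 reads per library. Pearson correlations over these genes were 0.885 to 0.929 between libraries of 1 compartment and 0.375 to 0.520 between libraries of different compartments, across genes that are not independent replicates. The sort was reflected in the 12 mature neutrophil markers, all of which had reads in every group. Their summed level, in RPM (reads scaled to the total recovered from a library), was 46069 to 48099 RPM in blood, 19112 to 21918 in tumor and 51659 to 52852 in bone marrow. Fewer neutrophils in a sort and less of these RNAs per neutrophil cannot be told apart in bulk libraries. The bone marrow cells are labelled Ly6G.hi and those of blood and tumor Ly6G+, whereas the methods describe the same sort for all compartments. Bone marrow levels here and below may thus come from a different gate.

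The genes taken to mark tumor neutrophils, Ccl3, Cxcl2 and Egr1, rose steeply, and the chemokine receptor gene Cxcr2 fell. Cxcl2, which encodes a neutrophil-attracting CXC chemokine, had log2 FPKM values of 4.64, 3.94 and 3.69 in blood replicates 1 to 3 and of 11.37, 11.70 and 10.83 in tumor replicates 1 to 3. Ccl3, which encodes a CC chemokine for monocytes and other leukocytes, had 3.23, 3.10 and 2.57 in blood and 10.22, 10.44 and 9.33 in tumor. Egr1, an immediate early transcription factor gene, had 1.01, 1.34 and 0.54 in blood and 8.88, 9.17 and 8.68 in tumor. In all of these genes the lowest tumor library lay far above the highest blood library, and tumor replicate 2 was the highest. The log2 fold changes were 7.21 ± 0.33 (SE, n = 3 and 3 libraries) for Cxcl2, 7.03 ± 0.34 for Ccl3 and 7.94 ± 0.24 for Egr1, which corresponds to 148-fold, 130-fold and 246-fold (limma, Benjamini-Hochberg adjusted p = 9.7e-05, 0.000101 and 9.7e-05). Cxcr2, the receptor for the chemokines that Cxcl1 and Cxcl2 encode, had 9.88, 10.16 and 10.09 in blood and 7.72, 7.78 and 7.46 in tumor. It fell by 2.39 ± 0.14 on the log2 scale, 5.24-fold (limma adjusted p = 0.000142), and its groups did not overlap either. In bone marrow neutrophils, Cxcl2 was at 5.31 to 5.87, Ccl3 at 2.42 to 2.95, Egr1 at 1.65 to 2.73 and Cxcr2 at 8.62 to 8.90.

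**Figure D1:**
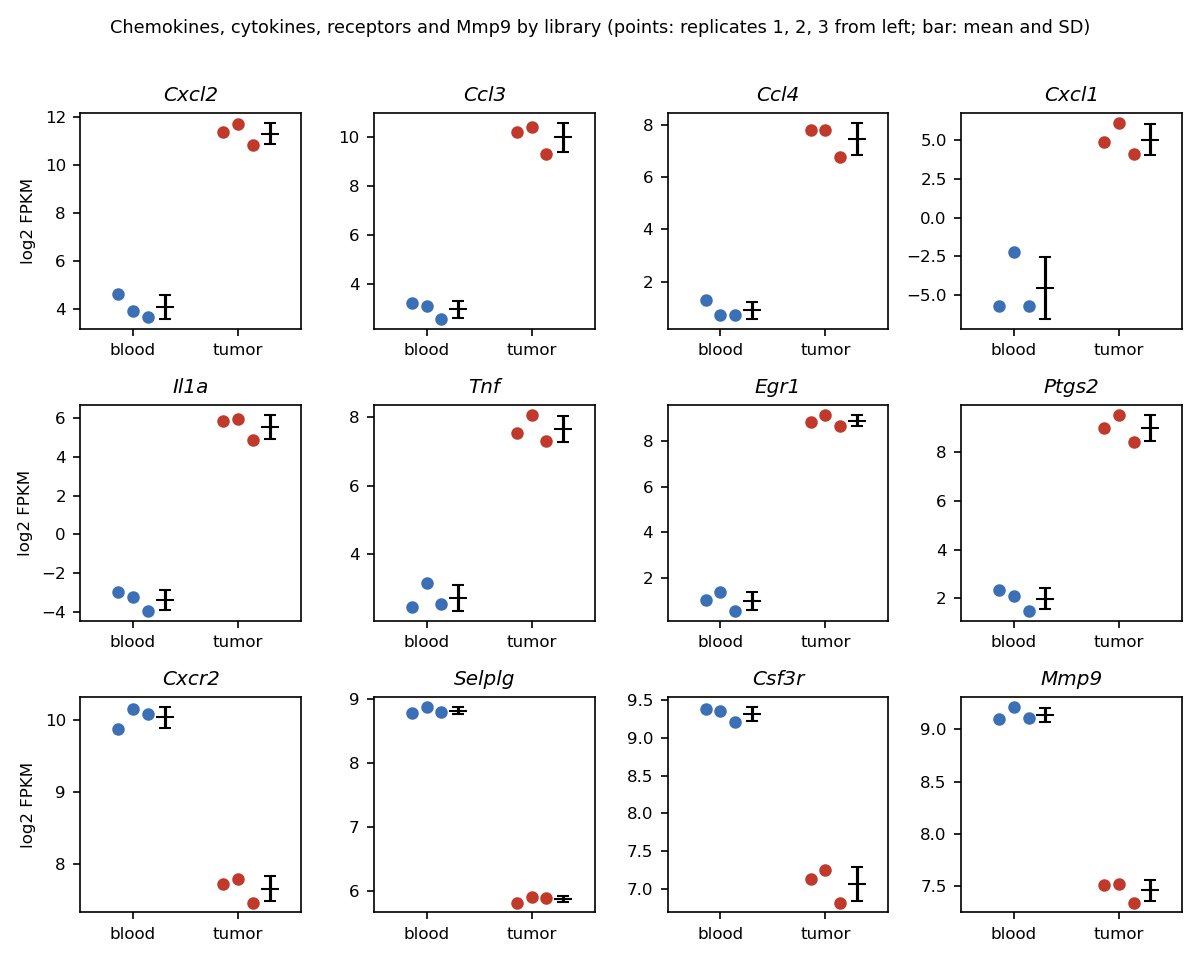
Log2 FPKM (vertical axis, scaled separately for each gene) of 12 genes in the 3 blood libraries (blue) and the 3 tumor libraries (red), with replicates 1 to 3 from left to right and the mean with its SD (n = 3) as a black bar. The first 8 genes lie higher in every tumor library and the last 4 lie lower in every tumor library, for example Cxcl2 at 3.69 to 4.64 in blood and 10.83 to 11.70 in tumor.

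Across all genes the compartments differed widely. In a limma fit, 1963 of the 7011 genes (28.0%) were called higher and 2452 (35.0%) lower in tumor at an adjusted p under 0.05, and 2596 were not called. The values of the 3 tumor libraries lay above all blood values in 2179 genes (31.1%) and below them in 2741 (39.1%). With 3 libraries against 3, an exact permutation test of a single gene cannot give a p below 0.1. The rises were larger than the falls: 358 genes were called higher by a log2 fold change of at least 5, and 43 were called lower by that much. The median log2 fold change of all genes tested was -0.20 with the library sizes the authors had scaled. With plain library totals it was 0.25, every log2 fold change was higher by 0.45, and the split became 2601 higher and 1716 lower, with 0 genes called in the opposite direction. All values here are on the authors' scaling, so a fall of less than 0.45 has no fixed direction.

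The filter itself favors genes that are high in 1 group. Of the genes tested, 967 were over 0 in tumor libraries alone, of which 939 were called higher, and 569 were over 0 in blood libraries alone, of which 545 were called lower. Such genes had to differ in order to be tested, so counts over lists that hold them are descriptions. At the edge of the filter, 1820 genes were over 0 in exactly 3 libraries and were tested, and 1017 were over 0 in exactly 2 and were not. No library held 10 or more reads of 93 of the called genes.

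**Figure D2:**
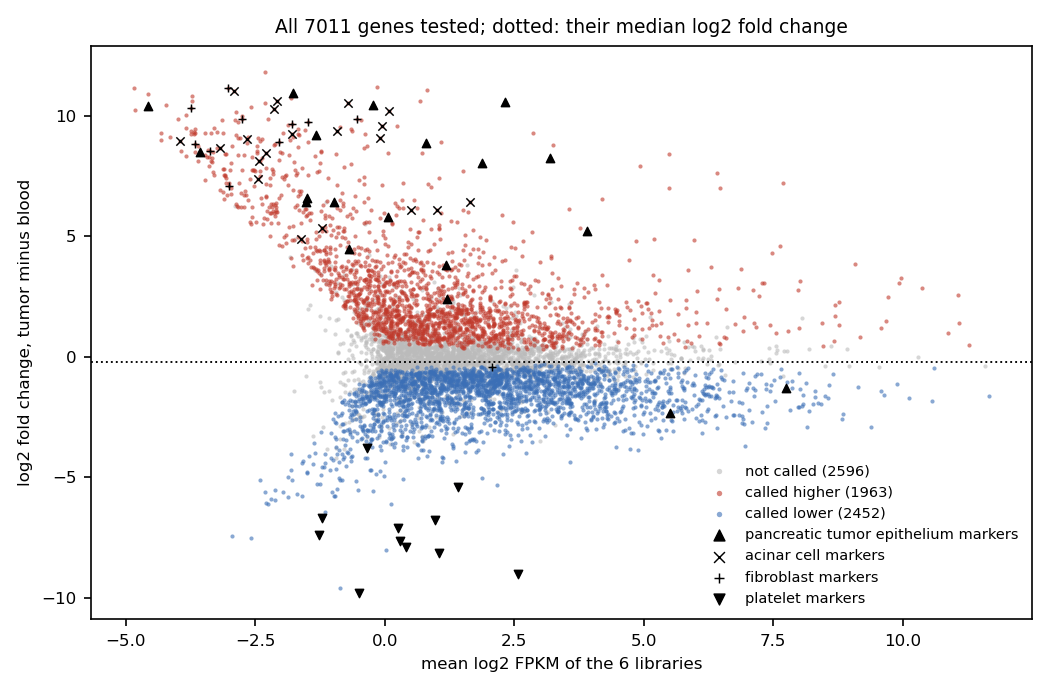
Log2 fold change, tumor minus blood (vertical axis), against the mean log2 FPKM of the 6 libraries (horizontal axis) for the 7011 genes tested, colored by call, with markers of tumor epithelium, acinar cells, fibroblasts and platelets as black symbols. The rising epithelial, acinar and fibroblast markers and the falling platelet markers lie at the outer edges of the cloud, and the dotted line marks the median of -0.20.

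RNA of other cells moved with the compartments, and it is given first because it touches many of the largest differences. Of the 31 acinar genes listed, which encode digestive enzymes of the pancreas, 20 were tested and 20 rose, with a median log2 fold change of 9.0. All 20 were over 0 in tumor alone. The summed acinar level was 2.84, 12.4 and 3.60 RPM in blood replicates 1 to 3 and 1644, 1150 and 4392 in tumor replicates 1 to 3. Cel, which encodes a bile salt-activated lipase, had 0, 8 and 1 reads in blood and 1256, 1264 and 5058 in tumor. Tumor replicate 3 thus carried the most acinar RNA, whereas Prss1 had 0 reads in every library.

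Of 19 tested epithelial genes, 16 rose and 2 fell, with a median of 6.60. In percent this was 84.2% and 10.5%, beside 28.0% and 35.0% over all genes tested. Of the 19, 8 were over 0 in tumor alone and had to differ in order to be tested. Among the falling genes was Lcn2, which also encodes a neutrophil granule protein. Without Lcn2 the epithelial sum was 185, 343 and 193 RPM in blood and 4813, 3600 and 7483 in tumor. Krt8, a keratin of simple epithelia, had 3, 406 and 5 reads in blood and 6831, 6601 and 14591 in tumor. Blood replicate 2 stood apart from the other blood libraries by these reads, and the tumor libraries were again led by replicate 3. Krt8 rose by 8.24 ± 1.78 (limma adjusted p = 0.00899), with a wide error, since the blood libraries lay far apart. Fibroblast genes followed, with 10 of 11 tested genes rising and a median of 9.66, and 10 were over 0 in tumor alone. Their sum was 68.8, 79.6 and 54.7 RPM in blood and 1895, 1922 and 2438 in tumor. Col1a1, a collagen chain of fibroblasts, had 1, 4 and 1 reads in blood and 1832, 2914 and 3070 in tumor.

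Other leukocyte and vessel markers moved less or in the opposite direction. Of 8 tested macrophage and monocyte genes, 0 rose and 3 fell (37.5%, beside 35.0% over all genes tested). With plain library totals 2 rose and 3 fell. The list sum was 1500 to 1784 RPM in blood and 581 to 750 in tumor. Csf1r, the listed gene with the most tumor reads, had 4796, 6885 and 5114 reads in blood and 1254, 1709 and 1454 in tumor. Dendritic cell genes gave 5 falls among 5 tested, 2 with plain library totals, 2 without blood replicate 1, tumor replicate 2 or tumor replicate 3, and 3 without blood replicate 2. Lymphocyte genes gave 7 falls and 1 rise among 8, the rise being Igkc, an immunoglobulin light chain gene of plasma cells. Of these 8 genes, 6 were over 0 in blood alone and had to differ in order to be tested. The sums of the 15 endothelial genes were 72.6 to 107 RPM in blood and 125 to 194 in tumor, and the 1 gene tested, Esam, was not called. Eosinophil, basophil and mast cell genes summed to 123 to 153 RPM in blood and 247 to 298 in tumor, with 1 rise and 1 fall among 4 tested. Blood libraries carried platelet and red cell RNA. The platelet sum was 821 to 1067 RPM in blood against 9.08 to 23.3 in tumor, and 11 of 11 tested platelet genes fell, by a median of 7.40 on the log2 scale. All 11 were over 0 in blood alone and had to differ in order to be tested. The erythroid sum was 252 to 512 RPM in blood and 32.5 to 159 in tumor, and 5 of 5 tested genes fell. Of these, 2 fell without blood replicate 2 or without tumor replicate 3, and 3 without blood replicate 3. The part of these cells' RNA in the differences below was not tested.

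**Figure D3:**
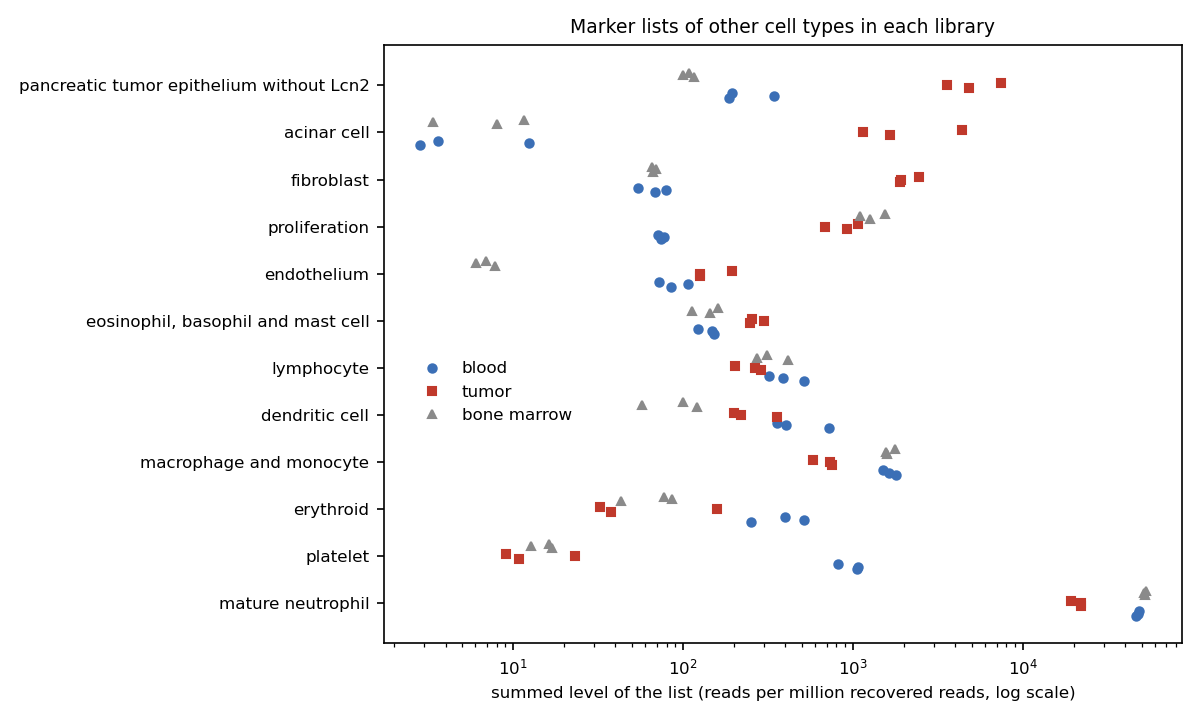
Summed level of each marker list (horizontal axis, RPM, log scale) in every blood (blue circles), tumor (red squares) and bone marrow library (gray triangles). Tumor libraries carried 3600 to 7483 RPM of epithelial genes without Lcn2 and 1150 to 4392 of acinar genes, and blood libraries carried 821 to 1067 of platelet genes.

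Chemokine genes had the highest median of the 18 programs examined. Of the 23 ligands listed, 13 were tested, 11 rose and 1 fell, with a median log2 fold change of 6.57 against -0.20 over all genes tested. Of the 13, 6 were over 0 in tumor alone. The largest log2 fold changes were those of Cxcl1 and Cxcl3, whose products are attractants of the Cxcr2 axis. Cxcl1 had 0, 2 and 0 reads in blood replicates 1 to 3 and 338, 979 and 260 in tumor replicates 1 to 3, and Cxcl3 had 13, 7 and 1 in blood and 4621, 7157 and 2919 in tumor. Both were nearly absent from blood, and both were highest in tumor replicate 2 and lowest in tumor replicate 3. The log2 fold changes were 9.58 ± 1.09 for Cxcl1 and 9.28 ± 0.98 for Cxcl3 (limma adjusted p = 0.000845 and 0.000656). Both genes were over 0 in tumor alone and had to differ in order to be tested, so these p-values are descriptions.

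The promoters of Cxcl1, Cxcl2 and Cxcl3 are shown because these neighboring genes of chromosome 5 rose together and their sequences share a site. Each line gives the 200 bases upstream of the RefSeq start site, 5′ to 3′ on the plus strand of GRCm38.p6, with matches to the NF-kB consensus in capitals. Cxcl1 is at chr5:90891045-90891244, Cxcl2 at chr5:90903699-90903898 and Cxcl3 at chr5:90785901-90786100.
Cxcl1: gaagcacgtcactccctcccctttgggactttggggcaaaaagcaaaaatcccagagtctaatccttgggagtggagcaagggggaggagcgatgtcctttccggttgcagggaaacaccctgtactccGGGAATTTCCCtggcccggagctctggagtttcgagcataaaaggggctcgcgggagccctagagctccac
Cxcl2: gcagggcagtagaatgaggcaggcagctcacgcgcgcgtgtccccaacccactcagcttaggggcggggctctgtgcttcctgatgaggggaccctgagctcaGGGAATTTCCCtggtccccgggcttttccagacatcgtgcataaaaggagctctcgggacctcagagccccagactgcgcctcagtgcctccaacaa
Cxcl3: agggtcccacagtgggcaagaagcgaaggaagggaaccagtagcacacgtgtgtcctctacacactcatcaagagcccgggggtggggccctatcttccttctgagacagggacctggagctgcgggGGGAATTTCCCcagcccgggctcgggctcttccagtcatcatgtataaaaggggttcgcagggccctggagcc
In all of them the capitals spell GGGAATTTCCC, a stretch of 11 bases in which overlapping matches on both strands lie. The stretch was found within 250 bases upstream of 14 of the 27025 genes with a promoter in the RefSeq table (0.0518%). Among the 4469 tested genes with a promoter it was found in 5, namely Cxcl1, Cxcl2, Cxcl3, Il16 and Zfp84, and 3 of these are the chemokine genes. The search for this stretch followed from seeing these sequences. Of the 7 risen chemokine genes with a promoter in the table, 4 held the NF-kB consensus on either strand, the fourth being Cxcl10, against 4.46% of all genes with a promoter and 5.48% of the tested genes with one. Ccl3 held no match in its window. A match of letters is a description and was not tested for binding.

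The CC chemokine Ccl4, closely related to Ccl3, had log2 FPKM values of 1.28, 0.71 and 0.72 in blood and 7.82, 7.83 and 6.78 in tumor, and rose by 6.57 ± 0.34 (limma adjusted p = 0.000112). Cxcl10, an interferon-inducible attractant of T cells, rose by 5.91 ± 0.64. Cx3cl1, Cxcl12 and Cxcl5 rose as well, by 8.38 ± 1.84, 7.35 ± 1.26 and 6.39 ± 1.31, with 0, 17 and 0 reads of Cx3cl1, 0, 3 and 0 of Cxcl12 and 0, 3 and 5 of Cxcl5 in blood. Their size depends on the constant added to such low counts: with a pseudocount of 1 FPKM the log2 fold changes were 2.49, 1.09 and 3.23, and that of Cxcl1 was 4.97. Epithelial and stromal cells are known to make Cx3cl1, Cxcl12 and Cxcl5. Ccl6, which blood neutrophils already express, was the only tested chemokine gene that fell, by 1.17 ± 0.27 (adjusted p = 0.0121), with 9.04 to 9.27 in blood and 7.39 to 8.35 in tumor. Among the 11 risen chemokine genes, 8 were lowest in tumor replicate 3, the library with the most acinar and epithelial RNA.

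Cytokine genes moved in both directions. Of 29 listed, 13 were tested, 8 rose and 4 fell, with a median of 1.26. Of the 13, 3 were over 0 in tumor alone and 1 in blood alone. Il23a, which encodes the p19 subunit of interleukin 23, had 0 reads in every blood and every bone marrow library and 499, 954 and 471 reads in tumor replicates 1 to 3. Its level was at least 420-fold higher in tumor, counted against 3 reads over the 3 blood libraries (limma adjusted p = 9.7e-05). Il1a, the alarmin interleukin 1 alpha, had 5, 6 and 3 reads in blood and 3690, 4829 and 2367 in tumor, and rose by 8.93 ± 0.40. Both genes were over 0 in tumor alone and had to differ in order to be tested, so that their groups could not overlap. The p-value of Il23a is therefore a description. Both genes were lowest in tumor replicate 3.

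Tnf, a central inflammatory cytokine gene, rose by 4.89 ± 0.27, with log2 FPKM values of 2.49 to 3.18 in blood and 7.31 to 8.05 in tumor. Osm, which encodes the gp130 cytokine oncostatin M, rose from 5.23 to 5.36 in blood to 9.36 to 9.80 in tumor, by 4.32 ± 0.15. Il1b rose by 1.21 ± 0.24 (adjusted p = 0.00672), with 8.78 to 9.26 in blood and 9.81 to 10.57 in tumor. Its natural antagonist Il1rn rose by 1.98 ± 0.23 and Tnfsf9, the ligand gene of the T cell costimulator 4-1BB, by 1.26 ± 0.27. The falls were those of Ltb, Tnfsf13b, Tnfsf14 and Il15, by 2.63, 2.47, 2.09 and 1.12. These encode lymphotoxin beta, the B cell factor BAFF, LIGHT and interleukin 15. Among the 8 risen cytokine genes, 8 were highest in tumor replicate 2 and 7 were lowest in tumor replicate 3. Vegfa, Il6, Il10, Csf2, Csf3 and 11 other listed genes did not pass the filter.

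Receptors that guide neutrophils through blood and vessel walls mostly fell. Of 32 listed, 27 were tested, 5 rose and 18 fell, with a median of -1.21, and with plain library totals 6 rose and 15 fell. On the authors' scaling this is 18.5% higher and 66.7% lower, beside 28.0% and 35.0% over all genes tested. Of the 27, 2 were over 0 in blood alone and had to differ in order to be tested. Selplg, which encodes the P-selectin ligand PSGL-1, had log2 FPKM values of 8.78, 8.88 and 8.81 in blood and 5.82, 5.91 and 5.89 in tumor, and fell by 2.95 ± 0.09 (limma adjusted p = 9.7e-05). Integrin genes of firm adhesion followed, with falls of 2.91 ± 0.13 for Itgal, 2.03 ± 0.11 for Itgb2 and 3.45 ± 0.19 for Itga4. The genes of the sphingosine receptor S1pr4 and the formyl peptide receptor Fpr1 fell by 2.95 and 1.96. No tumor value of these genes reached a blood value. Ccr2, a monocyte receptor gene, fell by 3.29 ± 0.39. Itgam, which encodes the CD11b chain, fell by 0.96 ± 0.16 and Cxcr4, the bone marrow homing receptor gene, by 0.83 ± 0.22 (adjusted p = 0.0204). The call of Cxcr4 was lost without blood replicate 1 (adjusted p = 0.051), without tumor replicate 2 (0.0594) or without tumor replicate 3 (0.0595), in each case in the limma fit. The rises were those of Ccrl2, Icam1, C3ar1, Itgb1 and S1pr1. S1pr1 rose by 0.72. Its call was lost without blood replicate 1 or 3 or any 1 of the tumor replicates (limma adjusted p = 0.0653 to 0.109). The call was also lost with the replicate number as a block and with limma-voom on the recovered reads. Ccrl2, which encodes an atypical receptor that presents chemerin, had 2.79, 2.90 and 2.10 in blood and 10.30, 10.50 and 9.85 in tumor, a rise of 7.62 ± 0.27 (limma adjusted p = 9.7e-05) with groups far apart.

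NF-kB is the factor through which Tnf and interleukin 1 induce inflammatory genes, and its inhibitors are themselves induced by it. Of 21 listed genes, 18 were tested, 7 rose and 5 fell, with a median of -0.02, and 3 fell without blood replicate 2 or without blood replicate 3. With plain library totals 8 rose and 2 fell. The shares, 38.9% higher and 27.8% lower, lay near the 28.0% and 35.0% over all genes tested, so nothing is read from the list as a whole and the values below are those of single genes. Tnfaip3, which encodes the deubiquitinase A20 that ends the signal, rose by 5.34 ± 0.44, from 0.25 to 1.52 in blood to 6.11 to 7.02 in tumor. The inhibitors Nfkbid, Nfkbiz, Nfkbia and Nfkbie rose by 3.19, 2.34, 2.27 and 1.31, and Traf1 and Ikbke by 3.59 and 3.21. The subunit genes Rel, Relb, Nfkb2 and Rela were not called, with log2 fold changes of -0.10, -0.11, -0.22 and -0.60. Rela was called lower with all 9 libraries in the fit and with the replicate number as a block. Tnip2, Bcl3, Birc3 and Tnfaip2, an adaptor, a nuclear coactivator, a ubiquitin ligase and a Tnf-induced gene, fell by 0.99, 0.88, 0.87 and 0.47. The call of Bcl3 was lost without blood replicate 2 or 3 or without tumor replicate 1 or 2 (limma adjusted p = 0.0789 to 0.114). With plain library totals Bcl3 was not called, and Tnfaip2 was at -0.025 (limma adjusted p = 0.823). Nfkb1 fell by 1.16 ± 0.33 (adjusted p = 0.0235), a call lost without any 1 of the blood replicates (limma adjusted p = 0.072, 0.0609 and 0.0559) or without tumor replicate 2 (0.0605). Promoters of 4 of the 6 risen NF-kB genes in the RefSeq table held the NF-kB consensus, against 4.46% of all genes. The list was chosen by pathway, so this share is a description.

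Immediate early transcription factor genes, which respond within minutes to stimulation, rose in the majority. Of 29 listed, 25 were tested, 15 rose, 3 fell and 7 were not called, with a median of 1.62. Of the 25, 4 were over 0 in tumor alone and 1 in blood alone. Besides Egr1, the larger rises were those of Fosl1 with 7.56 ± 1.13, Maff with 5.55 ± 1.45, Egr2 with 4.50 ± 0.29 and Myc with 4.26 ± 0.60. Maff had 4, 0 and 6 reads in blood and 105, 156 and 115 in tumor, and its call was lost without tumor replicate 2 (limma adjusted p = 0.0548). Nr4a1, an orphan nuclear receptor gene, had 3.92, 4.20 and 4.02 in blood and 7.59, 7.71 and 7.65 in tumor. Jun rose by 3.07 ± 0.24, Fos by 2.14 ± 0.12 and Junb by 0.98 ± 0.15. Batf, Mafg and Klf6 fell, by 2.35, 1.09 and 0.70. These genes are also known to respond to tissue digestion, which only the tumor cells underwent, and its part cannot be told apart from that of tumor entry.

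Some genes that shorten or dampen signalling rose as well. Of 29 listed, 24 were tested, 13 rose, 4 fell and 7 were not called, with a median of 0.90. Of the 24, 5 were over 0 in tumor alone. Socs2, a feedback inhibitor gene of cytokine receptors, had 0, 1 and 1 reads in blood and 267, 271 and 327 in tumor. Rgs1, which encodes a brake on chemokine receptor signalling, had 19, 18 and 4 reads in blood and 1308, 1365 and 915 in tumor, a rise of 6.08 ± 0.67. Both were close to absent from blood neutrophils. Gadd45b, a stress-responsive regulator of kinase signalling, rose from 4.62 to 5.33 in blood to 7.51 to 8.08 in tumor. Rgs2, Sgk1, Spry2 and Dusp6 fell by 2.73, 1.88, 1.34 and 1.00, so that members of the same families moved in opposite directions.

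**Figure D4:**
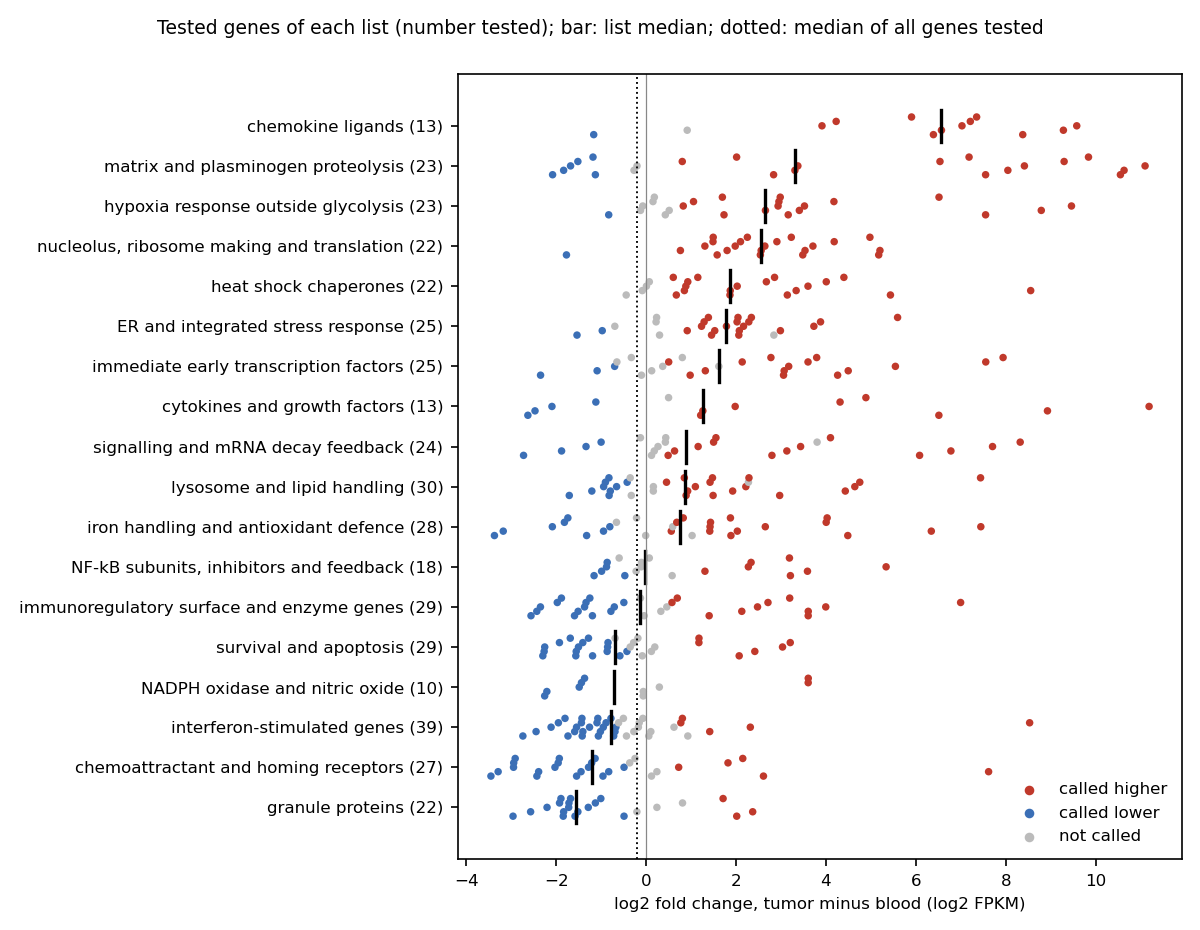
Log2 fold change, tumor minus blood (horizontal axis), of each tested gene in 18 gene lists (vertical axis, number tested in brackets), colored by call, with the list median as a black bar and the median of all genes tested, -0.20, as a dotted line. Chemokine ligands had a median of 6.57 and granule protein genes one of -1.55.

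Hypoxia-responsive genes outside glycolysis mostly rose. Of 33 listed genes, 23 were tested, 16 rose and 1 fell, with a median of 2.65, and 4 of the 23 were over 0 in tumor alone. Hilpda, which encodes a lipid droplet protein, had 16, 13 and 1 reads in blood and 4778, 6214 and 2631 in tumor, and rose by 8.79 ± 1.10 (limma adjusted p = 0.00118). Adm, which encodes the vasodilator adrenomedullin, rose by 6.52 ± 0.82, Ero1l, an oxidase gene of the endoplasmic reticulum, by 4.18 ± 0.38 and Bhlhe40, a transcriptional repressor gene, by 3.41 ± 0.25. In these genes the 3 tumor libraries lay above all blood libraries and replicate 2 was the highest. Hif1a itself was at 2.57 to 2.97 in blood and 2.77 to 3.32 in tumor and was not called, with a log2 fold change of 0.43 (adjusted p = 0.123). It was called with plain library totals (adjusted p = 0.00769), with quantile normalization (0.0365) and without tumor replicate 3 (0.0305). Car9, the top gene of the list with 9.46 ± 1.00, encodes a carbonic anhydrase known from hypoxic tumor cells, and it was highest in tumor replicate 3 at 4.51. Of the 16 risen genes, 14 were highest in tumor replicate 2 and 11 were lowest in tumor replicate 3. Vegfa and Egln1 did not pass the filter.

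The core of the hypoxia response element, ACGTG, was found on either strand within 250 bases upstream in 7 of the 12 risen hypoxia genes that matched the RefSeq table. Its share was 18.5% of all genes with a promoter and 26.6% of the tested genes. The list was chosen for its link to hypoxia and members that did not rise were not counted, so this is a description. Bnip3, which encodes a mitophagy receptor, and Ddit4, an inhibitor of mTOR signalling, are shown as examples, with the matches in capitals. Bnip3 is at chr7:138909507-138909706 and Ddit4 at chr10:59951771-59951970, both on the minus strand of GRCm38.p6.
Bnip3: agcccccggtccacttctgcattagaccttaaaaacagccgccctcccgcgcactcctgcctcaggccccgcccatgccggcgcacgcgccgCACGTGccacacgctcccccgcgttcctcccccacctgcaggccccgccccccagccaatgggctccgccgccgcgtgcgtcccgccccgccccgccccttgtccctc
Ddit4: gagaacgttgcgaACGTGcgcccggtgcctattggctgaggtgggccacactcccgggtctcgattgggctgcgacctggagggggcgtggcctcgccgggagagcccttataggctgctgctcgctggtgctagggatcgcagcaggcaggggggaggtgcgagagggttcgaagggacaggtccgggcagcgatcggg
The capitals in Bnip3 mark overlapping matches on both strands. Bnip3 rose by 1.70 ± 0.22 and Ddit4 by 3.16 ± 0.44 (limma adjusted p = 0.00144 and 0.00183).

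Chaperone genes mostly rose. Of 25 heat shock genes listed, 22 were tested, 18 rose and 0 fell, with a median of 1.87. Of the 22, 7 were over 0 in tumor alone and had to differ in order to be tested. Without tumor replicate 3, 18 rose and 1 fell. Hspa1a, the inducible Hsp70 gene, had 2.56, 3.02 and 2.58 in blood and 6.66, 7.13 and 6.39 in tumor, a rise of 4.01 ± 0.23 (limma adjusted p = 0.000142). Hspb1 had 0 reads in blood and 94, 75 and 132 reads in tumor, at least 65.7-fold higher. The mitochondrial chaperone genes Hspa9 and Hspd1 rose by 3.60 ± 0.13 and 3.34 ± 0.17, and Hsp90aa1 by 2.86 ± 0.13. These groups did not overlap. Heat shock genes are shown with their promoters because 6 of the 13 risen genes in the table held the letters GAANNTTC. The share was 7.73% of all genes with a promoter and 6.04% of the tested genes with one. The list was chosen for its link to heat shock and members that did not rise were not counted, so this is a description. Hspa1a is at chr17:34972157-34972356 on the minus strand and Hspb1 at chr5:135887719-135887918 on the plus strand of GRCm38.p6, with the matches in capitals.
Hspa1a: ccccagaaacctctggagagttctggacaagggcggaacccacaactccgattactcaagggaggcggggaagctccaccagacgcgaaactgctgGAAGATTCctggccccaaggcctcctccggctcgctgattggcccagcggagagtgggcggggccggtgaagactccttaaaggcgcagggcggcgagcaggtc
Hspb1: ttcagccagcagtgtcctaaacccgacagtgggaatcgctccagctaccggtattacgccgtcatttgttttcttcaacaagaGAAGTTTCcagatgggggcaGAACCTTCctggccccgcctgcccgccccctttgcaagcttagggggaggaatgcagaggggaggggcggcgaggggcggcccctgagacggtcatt

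Endoplasmic reticulum and integrated stress response genes gave 18 rises and 2 falls among 25 tested of 31 listed, with a median of 1.79. The shares were 72% higher and 8% lower, beside 28.0% and 35.0% over all genes tested. Of the 25, 3 were over 0 in tumor alone. Ppp1r15a, which encodes the phosphatase subunit GADD34, rose by 3.73 ± 0.30, from 3.91 to 4.93 in blood to 7.88 to 8.52 in tumor. Chaperone genes of the reticulum such as Calr, Pdia4 and Hyou1 rose by 2.28, 2.99 and 2.34. Phgdh, the first enzyme of serine synthesis, rose by 5.59 ± 0.59, whereas Chac1 and Sesn2 fell by 1.54 and 0.98. Of the 18 risen genes, 13 were highest in tumor replicate 3.

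Nucleolar and translation genes rose almost without exception. Of 31 listed, 22 were tested, 21 rose and 1 fell, with a median of 2.55, and 11 of the 22 were over 0 in tumor alone. Npm1, which encodes nucleophosmin, had 2.02, 1.3 and 1.12 in blood and 5.21, 4.6 and 5.08 in tumor, a rise of 3.49 ± 0.29 (limma adjusted p = 0.000308). Gnl3, Rrs1 and Nop58 rose by 5.17, 5.20 and 4.18, and Eif4ebp1, an inhibitor of translation, fell by 1.77 ± 0.14. Of 17 tested proliferation genes 16 rose, and 15 of the 17 were over 0 in tumor alone. Their sum was 71.5 to 77.1 RPM in blood, 684 to 1071 in tumor and 1098 to 1535 in bone marrow. In the nucleolar list 11 of 21 risen genes were highest in tumor replicate 3, and in the proliferation list it was 10 of 16. The tumor epithelium divides and makes ribosomes as well, and the part of its RNA was not tested.

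Granule protein genes mostly fell. Of 32 listed, 22 were tested, 3 rose and 16 fell, with a median of -1.55, and with plain library totals 4 rose and 14 fell. Granule genes are transcribed in order during maturation in the bone marrow, from azurophil through specific to gelatinase granules. S100a8 and S100a9, the abundant calprotectin subunit genes, fell by 1.84 ± 0.19 and 1.72 ± 0.24. S100a8 was at 11.46 to 11.51 in blood and 9.37 to 9.99 in tumor. Mmp9 and Mmp8, matrix metalloproteinase genes of gelatinase and specific granules, fell by 1.68 ± 0.10 and 1.83 ± 0.18, and Hp and Pglyrp1 fell by 2.57 ± 0.12 and 2.96 ± 0.32. The rising genes were Ltf, Camp and Ngp, all of specific granules. Ltf, which encodes lactoferrin, had 4.94, 4.37 and 4.57 in blood and 7.34, 6.51 and 7.15 in tumor, a rise of 2.37 ± 0.26 (limma adjusted p = 0.000769). Camp and Ngp rose by 2.02 ± 0.37 and 1.71 ± 0.30, and all of these were lowest in tumor replicate 2. In bone marrow Ltf was at 10.59 to 10.78, Camp at 9.72 to 9.75 and Ngp at 13.46 to 13.69, far above either compartment. The azurophil genes Mpo, Elane, Prtn3 and Ctsg did not pass the filter.

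Of 10 tested genes of the oxidative burst and nitric oxide among 12 listed, 2 rose and 5 fell, beside 28.0% and 35.0% over all genes tested, and with so few genes nothing is read from these counts. The cytosolic subunit gene Ncf4 fell by 1.49 ± 0.11, Rac2 by 2.21 ± 0.13 and Cyba by 1.44 ± 0.21, whereas Cybb, the catalytic subunit gene, was not called at 0.29. Nos2 and Arg1, which compete for arginine, both rose, each by 3.61, with SE of 0.37 and 0.40. Arg1 had log2 FPKM values of 0.11, -1.13 and -0.52 in blood and 3.16, 3.54 and 2.58 in tumor, and its groups did not overlap. Arg2 fell by 1.37 ± 0.17.

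Interferon-stimulated genes fell more often than they rose. Of 45 listed, 39 were tested, 5 rose and 23 fell, with a median of -0.78, and with plain library totals 8 rose and 17 fell. Ifitm1, which encodes a membrane protein that limits viral entry, had 8.57, 8.10 and 8.12 in blood and 5.97, 5.48 and 5.12 in tumor, and fell by 2.74 ± 0.26 (limma adjusted p = 0.000439). Ifitm2, Ifi27l2a and Oas3 fell by 1.95, 2.45 and 2.11. The rises were those of Iigp1, Bst2, Ifit2, Rsad2 and Gbp3, by 8.53, 2.32, 1.42, 0.81 and 0.77. The call of Ifit2 was lost without any 1 of the blood replicates or without tumor replicate 1 or 2 (limma adjusted p = 0.0544 to 0.0908). Isg15 was not called at 0.93.

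Survival genes showed rises in the Bcl2a1 family and falls in cytokine receptors and caspases. Of 34 listed, 29 were tested, 6 rose and 16 fell. These are 20.7% and 55.2% beside 28.0% and 35.0% over all genes tested, and with plain library totals 8 rose and 12 fell. Bcl2a1a, Bcl2a1b and Bcl2a1d, near-identical copies of an NF-kB-responsive survival gene whose reads could not be separated with certainty, rose by 2.42, 3.04 and 3.21, and Bcl2l1, which encodes Bcl-xL, by 1.18 ± 0.17. Csf3r, the receptor gene for the neutrophil growth factor G-CSF, had 9.39, 9.36 and 9.21 in blood and 7.13, 7.25 and 6.82 in tumor, and fell by 2.26 ± 0.15 (limma adjusted p = 0.00016). Casp1 and Bid, of inflammasome and apoptosis signalling, fell by 2.27 and 2.30, and the interferon gamma receptor genes Ifngr1 and Ifngr2 by 1.51 and 1.69.

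Of 36 immunoregulatory genes listed, 29 were tested, 11 rose and 14 fell. These are 37.9% and 48.3% beside 28.0% and 35.0% over all genes tested, and the values of single genes follow. Ptgs2, the inducible cyclooxygenase gene of prostaglandin synthesis, had 2.34, 2.11 and 1.49 in blood and 9.01, 9.51 and 8.43 in tumor, a rise of 7.0 ± 0.34 (limma adjusted p = 0.000101). Olr1, which encodes the oxidized lipoprotein receptor LOX-1, rose by 4.0 ± 0.35, Nt5e, the ectoenzyme gene for adenosine production, by 3.19 ± 0.25 and Cd274, which encodes PD-L1, by 2.71 ± 0.32. The leukotriene pathway genes Alox5ap and Alox5 fell by 2.56 ± 0.17 and 1.88 ± 0.12, and Cd300ld by 2.43 ± 0.14. Il1r2, the decoy receptor gene for interleukin 1, was not called at -0.13, whereas the other 11 mature neutrophil markers fell. Of the 11 risen genes, 11 were highest in tumor replicate 2 and 9 were lowest in replicate 3.

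Iron and antioxidant genes rose in 15 and fell in 8 of 28 tested, with a median of 0.75. These are 53.6% and 28.6% beside 28.0% and 35.0% over all genes tested, and 3 of the 28 were over 0 in tumor alone. With plain library totals 16 rose and 6 fell. Slc40a1, which encodes the iron exporter ferroportin, was at 6.97, 7.02 and 7.09 in blood and 3.66, 3.8 and 3.49 in tumor and fell by 3.37 ± 0.11 (limma adjusted p = 9.7e-05), whereas Tfrc, the transferrin receptor gene of iron uptake, rose by 4.03 ± 0.38. Steap4, a metalloreductase gene, fell by 3.18 ± 0.19. Prdx1 and Mt1 rose by 4.01 and 4.49, and Gpx1 fell by 2.09 ± 0.18.

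Matrix and plasminogen genes gave 15 rises and 6 falls among 23 tested of 29 listed, with a median of 3.31. Of the 23, 10 were over 0 in tumor alone. Spp1, which encodes osteopontin, had 49, 116 and 53 reads in blood and 31560, 29196 and 47329 in tumor, and rose by 8.42 ± 0.28 (limma adjusted p = 9.7e-05). Cyr61 and Ctgf, matricellular genes of epithelial and stromal cells, rose by 11.10 ± 1.40 and 10.63 ± 0.83. All of these were highest in tumor replicate 3. F3, which encodes tissue factor, rose by 7.18 ± 0.50 and was highest in tumor replicate 2. The falling genes were granule or neutrophil proteases, namely Adam19, Mmp8, Mmp9, Mmp25, Mmp19 and Adam8, by 2.08 to 1.13.

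Lysosome and lipid genes rose in 16 and fell in 9 of 30 tested, and 5 of the 30 were over 0 in tumor alone. These are 53.3% and 30.0% beside 28.0% and 35.0% over all genes tested. With plain library totals 18 rose and 6 fell, and the values of single genes follow. Ctsl, a cathepsin gene, rose by 2.97 ± 0.15, and Plin2, which encodes the coat protein of lipid droplets, by 2.29 ± 0.22. The lipid synthesis genes Sqle, Scd2 and Fasn rose by 4.75, 4.64 and 4.43, and all were highest in tumor replicate 3. Fabp5, Ctsa and Ctsd fell by 1.71, 1.21 and 0.95.

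By rank, the most abundant genes that rose were a mixture of these programs. Among the 12 with the largest log2 fold change at a mean log2 FPKM of at least 5 in tumor were Il23a, Cxcl1, Cxcl3, Il1a, Hilpda and Spp1, and beside them Krt18, Krt8, Elf3, Cel, Cyr61 and Ctgf. With no minimum level, Vcam1, Sparc, Lama5, Cpb1, Tm4sf4 and Npnt joined Il23a and Cyr61 in the top 8. Vcam1, an endothelial and stromal adhesion gene, had 0, 1 and 0 reads in blood, 1650, 1513 and 2103 in tumor and 157, 161 and 248 in bone marrow. The falls were led by the platelet genes Ppbp, Tubb1, Gp5, Gp9, Gp1bb, Alox12 and G6b and the hemoglobin genes Hba-a1 and Hbb-bs. Ppbp, which encodes a platelet chemokine precursor, had 1009, 1235 and 764 reads in blood and 9, 9 and 0 in tumor. Hba-a1 lost its call without blood replicate 2, without blood replicate 3 or without tumor replicate 3 (limma adjusted p = 0.0529 to 0.062). The remaining abundant falls were Foxd4, Tnfaip8l2, AI467606, Dck, Slc40a1, Steap4, E230001N04Rik and the ribosomal RNA gene Gm24786, by 4.39, 3.75, 3.71, 3.38, 3.37, 3.18, 3.26 and 3.19. Tnfaip8l2, which encodes the immune brake TIPE2, had 971, 1283 and 992 reads in blood, 119, 155 and 98 in tumor and 832 to 1081 in bone marrow. Gzma, a cytotoxic lymphocyte gene, fell from 117, 93 and 40 reads to 3, 0 and 0.

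The tumor libraries differed among themselves in a way that separated the gene groups. For each gene called higher, the log2 FPKM of tumor replicate 3 was set against the mean of tumor replicates 1 and 2. Its median was 0.15 over all 1963 genes called higher. It was 1.43 for the 20 acinar genes, 0.55 for the 16 epithelial genes and 0.27 for the 10 fibroblast genes. The medians were -0.94 for the 11 chemokine genes, -0.57 for the 8 cytokine genes, -0.56 for the 11 immunoregulatory genes, -0.49 for the 16 hypoxia genes and -0.41 for the 7 NF-kB genes. Nucleolar genes were at 0.18, genes of the stress response of the endoplasmic reticulum at 0.26 and heat shock genes at 0.03. Among the 358 genes that rose by at least 5, 236 were highest in tumor replicate 3. Over 3 libraries these differences have no test and are given as a description.

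**Figure D5:**
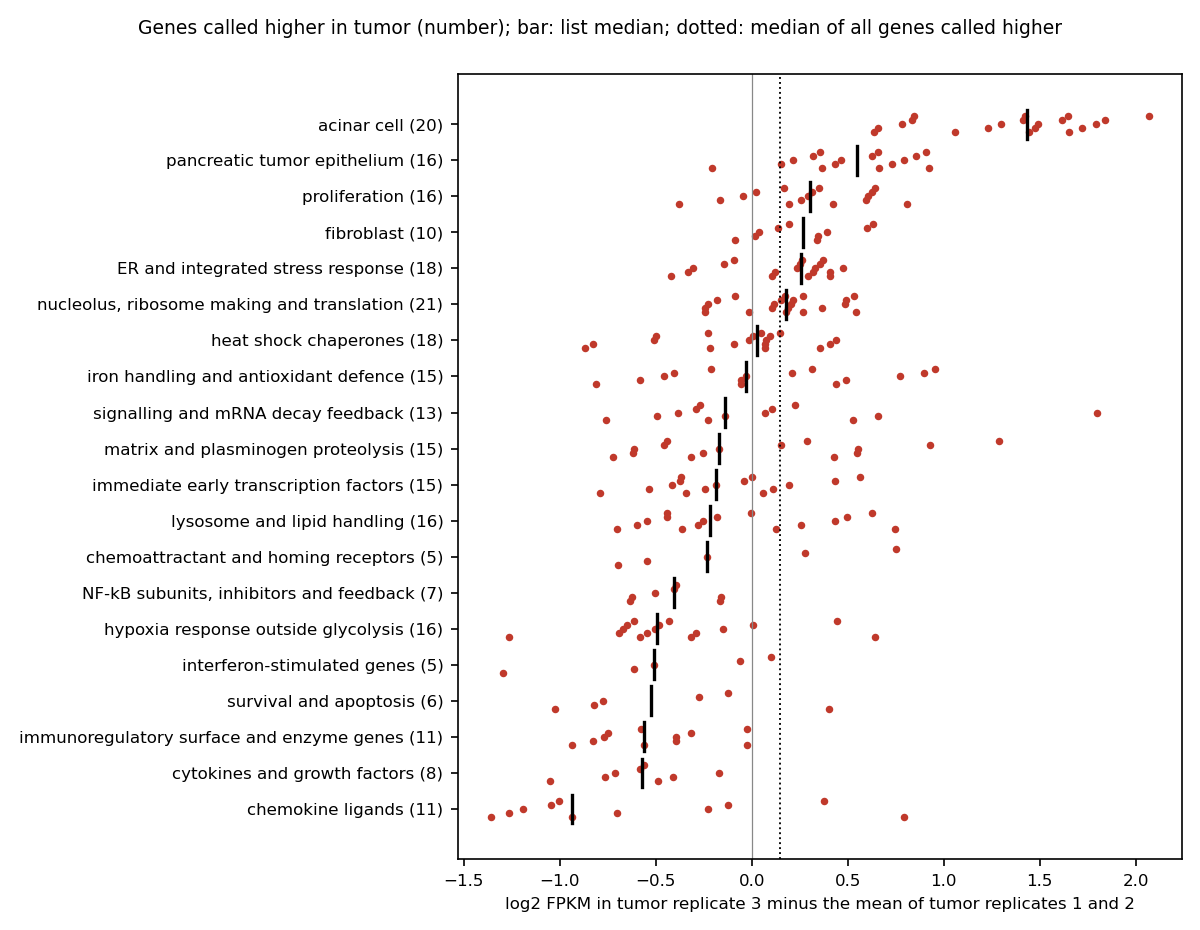
Log2 FPKM in tumor replicate 3 minus the mean of tumor replicates 1 and 2 (horizontal axis) of every gene called higher in tumor, for lists with at least 5 such genes (vertical axis, number in brackets), with list medians as black bars and the median of all genes called higher, 0.15, as a dotted line. Acinar genes lie to the right with a median of 1.43 and chemokine ligands to the left with a median of -0.94.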

How the data were processed

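RNA of sorted neutrophils was sequenced with the Smart-seq2 protocol. According to their methods and notes, the authors aligned reads with STAR 2.5.2b to GRCm38, counted them per GENCODE M7 gene with featureCounts 1.5.0, removed genes that reached 5 reads in no sample, and tested with limma-voom. They deposited log2 FPKM values. These hold a constant of 0.25 reads, scaled library sizes and, for 40141 genes, the genomic span as length, so levels were compared between libraries and not between genes. Whole reads were recovered from the steps of these values for 46498 of the 46517 genes (within 0.01 of a whole number).

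The log2 FPKM values were tested with limma 3.58.1 in R 4.3.3 (empirical Bayes with trend, no block) on the 6 libraries, over genes over 0 in at least 3, with Benjamini-Hochberg adjustment over all of them and calls at 0.05. Fold changes are on the scale with that constant. Genes with 0 reads in a group were given as at least a fold against 3 reads over the group. Named genes were list members fixed as landmarks, up to 4 called per direction and list, and the 12 abundant (mean of at least 5) and 8 other genes with the largest changes each way. Those named outside this rule, and the promoters shown, were chosen after their values were seen. The members and lists were chosen with earlier results of these data known. Each library is a pool of mice, and the p-values measure the spread between 3 pools. Promoters came from the RefSeq table of GRCm38.p6, which matched 4469 of the tested genes. The test was checked on simulated data. Alternatives comprised other filters, pseudocounts, scalings, fits and leaving out each library. Some genes of the lists are not reported here.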

Additional observations from a re-analysis of the deposited data

How the results depend on the processing

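The counts of 1963 genes called higher and 2452 called lower moved by over 1.5 times with 4 other settings. With no filter 3067 were called higher, with log2 FPKM over 2 as the filter 803 higher and 1464 lower, with at least 5 reads as the filter 5359 higher, and with limma-voom on the recovered reads 5434 higher, since these settings test more or fewer genes. Leaving out 1 library gave 1728 to 1846 higher and 2072 to 2372 lower. Of the 4415 calls, 705 were lost with plain library totals, 295 with quantile normalization and 408 to 585 on leaving out a library. The size of the fold changes depended on the constant: a pseudocount of 1 moved 2001 of the 4415 log2 fold changes by over 1.5 times, with 7 calls lost. Of the 174 called genes named by the stated rule, 5 lost the call with plain library totals (Bcl3, Cxcr4, Klf6, Lcn2 and Nfkb1) and 2 with quantile normalization (Cxcr4 and Junb), and 46 with no filter. Il1r2, not called, turned positive with quantile normalization (0.45), plain library totals (0.32) and without tumor replicate 3 (0.024), and leaving out a library gave -0.28 to 0.024. The labels number the libraries 1 to 3 in both compartments, and the study speaks of blood and tumor of the same mouse, but not of what a number marks. The deviations of same-numbered libraries correlated at 0.106, -0.083 and -0.007, so the numbers were not used as pairs, although this does not show that the pools were separate. With the replicate number as a block 1901 genes were called higher and 2385 lower, with 336 calls lost. The call of S1pr1 was among them, but none of the 174 genes named by the stated rule. The depth limits genes near the filter: the 93 called genes that reached 10 reads in no library have the least support.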

Other observations

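A set of genes was low in the first library of both compartments. Counted after the values had been seen, 75 genes had a log2 FPKM more than 1.5 higher in replicate 3 than in replicate 1 in blood and in tumor, and 40 genes had a difference under -1.5 in both. Only 3 of the 75 also passed this limit in bone marrow, where their median difference was -0.18. Rac1, a GTPase gene of migration and of the oxidative burst, had 257, 431 and 3263 reads in blood replicates 1 to 3, 198, 2370 and 2426 in tumor and 3889, 3250 and 3503 in bone marrow. Lamp1, which encodes a lysosomal membrane protein, had 58, 358 and 1579 reads in blood and 487, 4953 and 5588 in tumor. Spi1, the gene of the myeloid transcription factor PU.1, had 1608, 3230 and 7642 in blood and 595, 2438 and 2417 in tumor. Of the 75 genes, 64 were not called between tumor and blood, 10 were called higher and 1 lower, so that for Rac1 (log2 fold change -0.06, limma adjusted p = 0.972) and its like the comparison says little.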
